A study of Homo sapiens with 9 samples.

Results

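Genes of respiratory complex I whose symbols begin with NDUF were examined in mRNA sequencing of HaCaT cells, immortalised keratinocytes of human skin. Of 20263 genes in the deposited count table, 48 had such a symbol and 47 had counts. The remaining row, the readthrough NDUFC2-KCTD14, had 0 counts in every library. The 47 members comprised 37 nuclear-encoded subunits of complex I, 8 assembly factors (NDUFAF1 to NDUFAF8) and 2 genes outside the complex, NDUFA4, whose product is now placed in complex IV, and its paralog NDUFA4L2. Members were chosen by symbol, and all 47 passed the filter on low counts.

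The libraries fell into 3 groups of 3, namely untreated HaCaT cells (control), HaCaT cells given melanosomes, the pigment organelles of melanocytes (melanosome), and HaCaT cells given both melanosomes and glabridin, an isoflavan of licorice root (glabridin). No group received glabridin without melanosomes. The labels give neither dose nor exposure time, nor where the melanosomes came from. They also leave unsaid if the replicates are separate cultures, so each p-value sets a difference against a spread between libraries that may be technical. The series was designed around the breakdown of melanosomes under glabridin.

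Complex I (NADH:ubiquinone oxidoreductase) is the entry point of electrons from NADH into the respiratory chain and pumps protons across the inner mitochondrial membrane. Its matrix arm holds the N module, which oxidises NADH, and the Q module, which passes electrons to ubiquinone. Its membrane arm, with a proximal and a distal part, holds the proton pumps, which are encoded by mitochondrial DNA, surrounded by accessory subunits from the nucleus. Assembly factors build the modules and join them, and are absent from the finished enzyme. Keratinocytes rely on both glycolysis and mitochondrial respiration.

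Total counts ran from 39653425 to 46690787 per library. Levels within a gene are given as CPM (counts scaled by TMM library size), and levels of different genes are set side by side only as TPM, which takes account of transcript length. A gene was called when its adjusted p was under 0.05 (edgeR quasi-likelihood test, Benjamini-Hochberg adjustment over 13912 genes). A change written as a value ± SE is a log2 fold change. Markers of another cell type moved with the groups. All 18 of 18 melanocyte markers rose from control to melanosome libraries, where their summed level went from between 190 and 203 CPM to between 3515 and 3639 CPM, and 5 of them had no counts in any control library. In glabridin libraries the sum ran from 2181 to 3940 CPM. The median log2 fold change of these 18 markers was 10.4 in melanosome against control, where 17 were called with at least a 2-fold change. Their median level was 0.0267 ± 0.0231 TPM in control and 68.55 ± 1.51 TPM in melanosome libraries (SD, n = 3). Of 16 keratinocyte markers, 9 fell and 4 rose from control to melanosome libraries, and their sum went from 20576 to 20951 CPM in control to 16175 to 17422 CPM. Summed as TPM, the 16 stood at 16984 ± 183 in control and 17054 ± 288 in melanosome libraries (SD, n = 3). The lower sum with melanosomes was thus seen in CPM and not in TPM. In such bulk samples, fewer cells of a type and less RNA per cell cannot be told apart, and the part of pigment cell RNA in the changes below was not tested.

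In control cells the NDUF transcripts spanned a wide range of levels. NDUFB7, an accessory subunit of the distal membrane arm, stood highest at 321 ± 4.53 TPM (SD, n = 3), level with NDUFA8 at 318 ± 8.93 TPM and with NDUFV1, the NADH-binding subunit, at 312 ± 7.45 TPM. These leading levels did not differ beyond their spread. NDUFA4L2 stood lowest at 0.970 ± 0.185 TPM, next to NDUFA7, a Q module subunit, at 1.27 ± 0.431 TPM. Every NDUFA7 value rests on 8 to 24 counts per library. The gene shares 32.3% of its exonic bases on the same strand with the annotated readthrough gene AC010323.1, so its count is uncertain. The median subunit stood at 62.4 ± 2.75 TPM and the median assembly factor at 11.2 ± 0.617 TPM in control. Assembly factors therefore had lower levels than subunits as a class, with NDUFAF2 (37.2 ± 1.05 TPM) as the most abundant of the 8.

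The comparison of melanosome with control libraries sets HaCaT cells given melanosomes against untreated HaCaT cells, without separating keratinocyte RNA from other RNA. Both classes of complex I genes were mostly higher with melanosomes. Of 37 subunits, 25 rose and 2 fell, and of 8 assembly factors, 6 rose. Among all genes tested, 62.5% were called in this comparison, 29.5% higher and 33.0% lower. The share of NDUF members called, 74.5%, was thus not far from that of all genes, while the calls lay mostly in 1 direction. CPM did not overlap between the groups for 41 of 47 members, against 76.1% of all genes tested. The median log2 fold change was 0.47 over subunits and 0.66 over assembly factors, beside -0.06 over all genes tested. The difference between the classes was not tested. In the same libraries all 18 melanocyte markers rose.

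**Figure D1:**
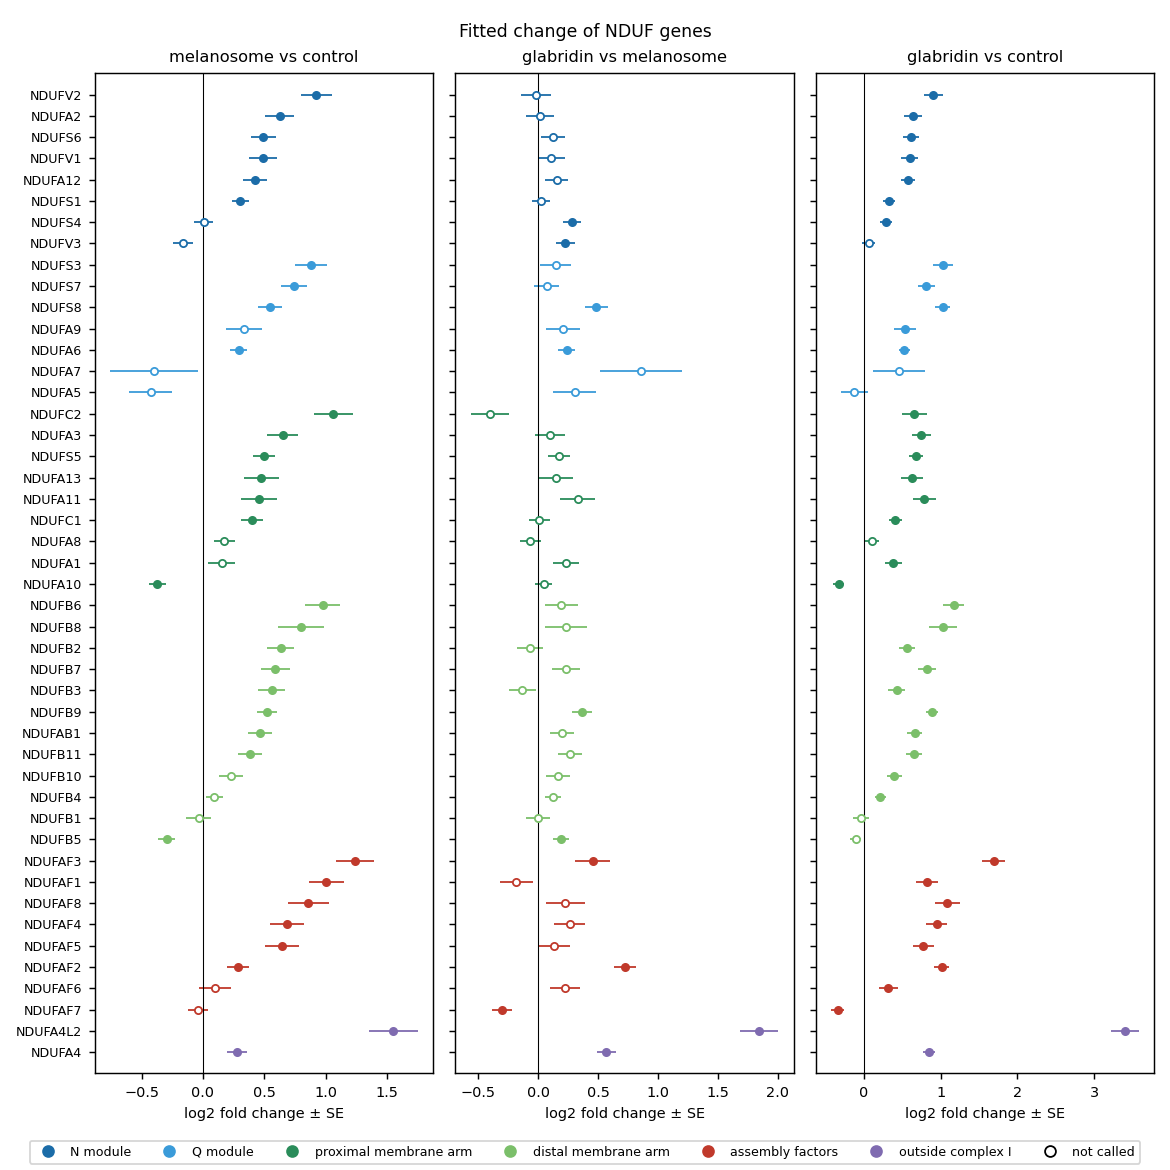
Log2 fold change with its standard error for 46 NDUF genes, in melanosome against control (left), glabridin against melanosome (middle) and glabridin against control (right), with a separate horizontal scale per panel. Colours mark the module or class, and open points were not called. Most points of the left and right panels lie above 0, while in the middle panel 35 of 46 points are open.

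Among the assembly factors, NDUFAF3, which helps to build the Q module (chromosome 3, 49020459 to 49023495, GRCh38), changed most. Its control libraries held 15.5, 16.0 and 17.7 CPM, its melanosome libraries 37.3, 36.8 and 41.7 CPM and its glabridin libraries 49.4, 67.6 and 41.9 CPM. Every melanosome library was above every control library, a 2.36-fold difference (log2 fold change 1.24 ± 0.15 SE, edgeR adjusted p = 5.78e-05). NDUFAF1, a member of the complex that assembles the membrane arm around ND2 (chromosome 15, 41387349 to 41402519), held 3.76, 5.04 and 4.01 CPM in control, 8.97, 8.68 and 8.09 CPM in melanosome and 6.89, 8.74 and 7.03 CPM in glabridin libraries. Control stood apart from both other groups, and the melanosome change was 1.01 ± 0.14 SE (edgeR adjusted p = 1.41e-04). NDUFAF8, the partner of NDUFAF5, rose by 0.86 ± 0.17 SE, NDUFAF4 by 0.69 ± 0.14 SE, and NDUFAF5, which modifies the Q module subunit NDUFS7, by 0.64 ± 0.14 SE. NDUFAF2, a paralog of the subunit NDUFA12 that acts late in assembly, had a smaller change of 0.29 ± 0.09 SE (edgeR adjusted p = 0.0202). That call was lost without control replicate 1 or 3, or without any single melanosome replicate, with adjusted p between 0.05005 and 0.0670. NDUFAF6 (0.10 ± 0.13 SE) and NDUFAF7, a methyltransferase needed for assembly (-0.04 ± 0.08 SE), were not called.

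As a share within each library, which does not depend on scaling between libraries, the 8 assembly factors together made up 2.998% to 3.18% of the summed TPM of subunits and assembly factors in control, 3.57% to 3.75% in melanosome and 4.11% to 4.66% in glabridin libraries. The 3 groups did not overlap. Without NDUFAF3 these ranges were 2.40% to 2.64%, 2.67% to 2.75% and 2.85% to 3.57%, closer to each other and still without overlap. Without both NDUFAF3 and NDUFAF2, an alternative chosen after seeing the data, the other 6 factors made up 1.39% to 1.61% in control, 1.73% to 1.76% in melanosome and 1.56% to 1.75% in glabridin libraries. The glabridin range then overlapped both other groups, so the higher share in glabridin than in melanosome libraries was not seen without these 2 genes. The median assembly factor stood at 16.0 ± 0.526 TPM in melanosome and 11.9 ± 0.640 TPM in glabridin libraries, the latter near the control value. This median lies between NDUFAF1 and NDUFAF7, and NDUFAF7 was lower in glabridin libraries (12.8 ± 0.815 TPM) than in control (16.2 ± 0.567 TPM). The sum of the 8 did not return to control. It was 110 ± 2.79 TPM in control, 196 ± 1.70 TPM in melanosome and 223 ± 14.0 TPM in glabridin libraries. Of 12 further assembly factors of complex I without an NDUF name, FOXRED1 rose (0.40 ± 0.11 SE), TMEM126B fell (-0.40 ± 0.09 SE) and 10 were not called, with a median log2 fold change of -0.04. ECSIT (0.12 ± 0.08 SE), ACAD9 (0.02 ± 0.09 SE) and TIMMDC1 (-0.02 ± 0.06 SE), which work beside NDUFAF1 on the membrane arm, were among the genes not called.

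In the N module, 6 of 8 subunits rose. NDUFV2, an iron-sulfur protein at the NADH end (chromosome 18, 9102630 to 9134345), held 50.1, 54.2 and 51.9 CPM in control and 100.4, 99.7 and 96.2 CPM in melanosome libraries (0.92 ± 0.13 SE, edgeR adjusted p = 1.12e-04). It shares 28.4% of its exonic bases on the same strand with AP005263.1. NDUFV1, which binds NADH and the flavin, held 232, 233 and 239.8 CPM against 313, 338 and 339 CPM (0.49 ± 0.11 SE, edgeR adjusted p = 0.00331). Neither gene's groups overlapped. NDUFS1, the largest iron-sulfur subunit, rose less, from 97.5, 98.8 and 102 CPM to 121, 125 and 122 CPM (0.31 ± 0.07 SE, edgeR adjusted p = 0.00415). The other rises were those of NDUFA2, NDUFS6 and NDUFA12, with log2 fold changes from 0.42 to 0.62. NDUFS4 (0.01 ± 0.08 SE) and NDUFV3 (-0.16 ± 0.08 SE) were not called.

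In the Q module most subunits rose. NDUFS3 (chromosome 11, 47565336 to 47584562) held 45.4, 44.2 and 46.8 CPM in control and 78.4, 87.3 and 85.4 CPM in melanosome libraries, with no overlap (0.88 ± 0.13 SE, edgeR adjusted p = 1.83e-04). This gene shares 19.6% of its exonic bases with PTPMT1 on the same strand. NDUFS7 changed by 0.74 ± 0.11 SE, and NDUFS8, which carries iron-sulfur clusters on the path to ubiquinone, by 0.54 ± 0.10 SE. NDUFA6, an accessory subunit, rose as well (0.29 ± 0.07 SE). NDUFA9 (0.33 ± 0.14 SE) and NDUFA7 (-0.40 ± 0.36 SE) were among those not called. Of the 30 accessory subunits over the whole complex, which surround the catalytic core, 18 rose and 2 fell.

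In the proximal membrane arm, 6 of 9 subunits rose and 1 fell. NDUFC2 (chromosome 11, 78068304 to 78080219) had the largest rise of any subunit, from 10.3, 8.07 and 10.5 CPM in control to 24.2, 20.0 and 16.1 CPM in melanosome libraries (2.09-fold, 1.06 ± 0.16 SE, edgeR adjusted p = 2.44e-04). Its melanosome replicates spread widely but stayed above control, and 16.3% of its exonic bases are shared with the readthrough NDUFC2-KCTD14. NDUFA10, an accessory subunit bound to ND2 (chromosome 2, 239892450 to 240025402), went the other way, from 124, 127 and 120.2 CPM to 92.2, 95.8 and 98.8 CPM (-0.37 ± 0.07 SE, edgeR adjusted p = 9.36e-04). All melanosome libraries lay below control. NDUFA3, NDUFS5, NDUFA13, NDUFA11 and NDUFC1 rose by 0.40 to 0.65 on the log2 scale. NDUFA13 shares 21.0% of its exonic bases on the same strand with AC011448.1, and NDUFC1 shares 18.5% with MGARP. The calls of NDUFA11 and NDUFA13 were lost without control replicate 2 (adjusted p = 0.0835 and 0.0623) or melanosome replicate 2 (0.0770 and 0.0574), and that of NDUFA11 also without melanosome replicate 3 (0.0552). NDUFA8 (0.17 ± 0.09 SE) and NDUFA1 (0.15 ± 0.11 SE) were not called.

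In the distal membrane arm, 8 of 12 subunits rose and 1 fell. NDUFB6 (chromosome 9, 32552999 to 32573184) held 16.7, 13.9 and 17.5 CPM in control and 32.6, 35.8 and 26.3 CPM in melanosome libraries, without overlap (1.96-fold, 0.97 ± 0.14 SE, edgeR adjusted p = 1.72e-04). NDUFAB1, the mitochondrial acyl carrier protein that is also a subunit, held 40.6, 43.8 and 40.5 CPM against 55.9, 58.0 and 58.6 CPM (0.47 ± 0.10 SE, edgeR adjusted p = 0.00204). NDUFB5 fell from 126, 125 and 132 CPM to 109, 104 and 101 CPM (-0.29 ± 0.07 SE, edgeR adjusted p = 0.00330). The call of NDUFB5 was kept with RLE factors and DESeq2, but without scaling factors NDUFB5 was at -0.13 (adjusted p = 0.110) and with limma on log2(TPM + 1) at -0.11 (adjusted p = 0.143). NDUFB2, NDUFB3, NDUFB7, NDUFB8, NDUFB9 and NDUFB11 rose by 0.38 to 0.80. NDUFB10 (0.23 ± 0.10 SE), NDUFB4 (0.09 ± 0.07 SE) and NDUFB1 (-0.04 ± 0.10 SE) were not called. With RLE factors NDUFB10 (0.30, adjusted p = 0.0336), NDUFA8 (0.24, 0.0451) and NDUFA9 (0.40, 0.0356) passed as higher as well, and so they did with DESeq2. With only the 2 groups compared, NDUFB10 (edgeR adjusted p = 5.06e-05), NDUFA8 (1.00e-04), NDUFB4 (7.43e-04), NDUFA1 (0.00525) and NDUFA9 (0.00736) passed as higher. These subunits also passed without scaling factors and with limma on log2(TPM + 1). NDUFS4 passed as higher with limma alone (adjusted p = 0.0241). NDUFA5, in the Q module, had the lowest change of any subunit, from 38.4, 39.4 and 40.7 CPM to 35.3, 29.9 and 22.9 CPM, without overlap and not called (-0.43 ± 0.18 SE, edgeR adjusted p = 0.0566). It passed as lower without the filter on low counts (adjusted p = 0.0484), with only the 2 groups compared (0.0193) and without melanosome replicate 1 (0.0254). NDUFB4 has 12 named pseudogenes and NDUFA5 also has 12, with which their reads may be shared. The same limit applies to others, as 21 of the 47 members have named pseudogenes. Among them are NDUFS5 (6), NDUFA3 (5) and NDUFAF4 (4), which rose.

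**Figure D2:**
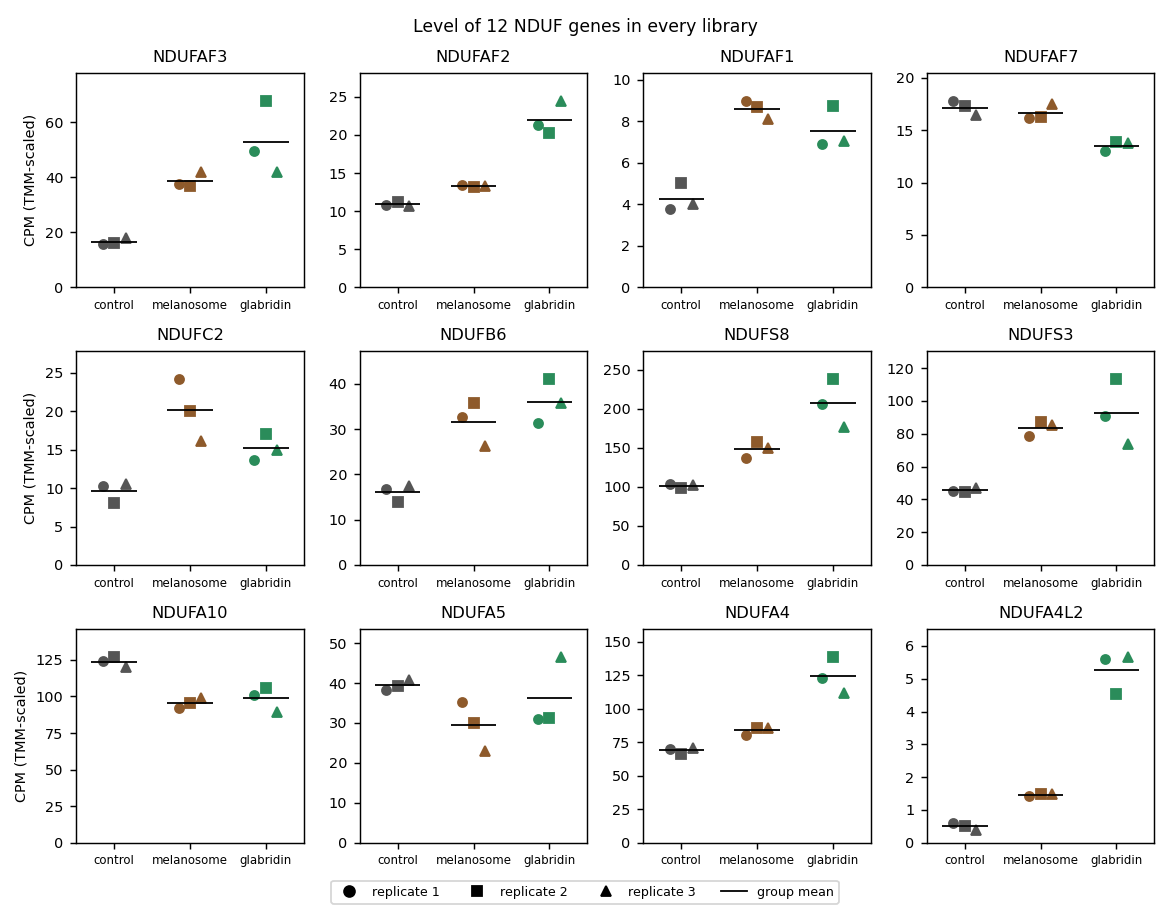
CPM on TMM-scaled library sizes (vertical axes from 0) of 12 NDUF genes in each of the 9 libraries, with symbols for replicates and a line at the group mean. NDUFAF3, NDUFC2 and NDUFB6 are lowest in control, and NDUFA10 is highest there.

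Promoters of members that rose or fell are shown because transcripts of this complex moved together with exceptions. Of the 47 members, 39 had a promoter of 300 bases in the RefSeq table (GRCh38.p14, 250 bases before to 50 after the start), 32 of them of subunits and 7 of assembly factors. Each was searched on both strands for the letters of known factor motifs. The NRF1 motif, bound by a factor known for its role at genes of respiration, was found in 6 subunit promoters (NDUFA3, NDUFA8, NDUFA9, NDUFA11, NDUFA12 and NDUFB4) and 1 assembly factor promoter (NDUFAF5), against 11.1% of 11156 promoters of tested genes and 5.78% of all 35116 promoters. Matches in NDUFA8 overlapped each other. Of those 7 genes, NDUFA3, NDUFA11, NDUFA12 and NDUFAF5 rose with melanosomes, and NDUFA8, NDUFA9 and NDUFB4 were not called. With only the 2 groups compared, NDUFA8, NDUFA9 and NDUFB4 passed as higher (edgeR adjusted p = 1.00e-04, 0.00736 and 7.43e-04). They also passed without scaling factors and with limma on log2(TPM + 1). Over all 47 members 33 rose in that comparison with TMM factors and all 9 libraries. Members without the motif, such as NDUFB10, also passed as higher under those other settings. NDUFB4, not called, had matches beginning 159, 63 and 8 bases before the start. The YY1 motif was found in 4 subunit promoters (NDUFS4, NDUFA9, NDUFS7 and NDUFA6; 2.64% of promoters of tested genes), the GABPA motif CCGGAAGT in 2 (NDUFS1 and NDUFA13; 8.26%) and the cyclic AMP response element TGACGTCA in 2 (NDUFA10 and NDUFB2; 3.16%). The ATF4 motif TGATGCAA was in none of the 39 (0.511% of promoters of tested genes). The promoters of NDUFA3 and NDUFAF5, which rose, carry the NRF1 letters, and those of NDUFA10, which fell, and NDUFB2, which rose, both carry the cyclic AMP response element at a similar distance from the start. In each line below, capitals mark the motif matches, and the sequence runs 5′ to 3′ on the strand of the gene.
NDUFA3 (chr19:54102605-54102904, plus strand): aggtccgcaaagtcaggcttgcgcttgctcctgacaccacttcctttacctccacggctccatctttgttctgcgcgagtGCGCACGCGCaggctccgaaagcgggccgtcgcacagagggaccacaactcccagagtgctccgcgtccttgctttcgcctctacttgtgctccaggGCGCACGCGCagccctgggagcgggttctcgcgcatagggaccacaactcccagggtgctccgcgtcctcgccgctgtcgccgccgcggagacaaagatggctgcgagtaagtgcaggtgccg
NDUFAF5 (chr20:13784778-13785077, plus strand): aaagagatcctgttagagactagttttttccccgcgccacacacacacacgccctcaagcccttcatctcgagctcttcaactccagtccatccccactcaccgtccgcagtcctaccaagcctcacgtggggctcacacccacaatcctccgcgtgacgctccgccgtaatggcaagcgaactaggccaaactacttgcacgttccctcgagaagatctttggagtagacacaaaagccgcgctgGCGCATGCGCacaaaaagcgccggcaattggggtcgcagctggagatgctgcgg
NDUFA10 (chr2:240025293-240025592, minus strand): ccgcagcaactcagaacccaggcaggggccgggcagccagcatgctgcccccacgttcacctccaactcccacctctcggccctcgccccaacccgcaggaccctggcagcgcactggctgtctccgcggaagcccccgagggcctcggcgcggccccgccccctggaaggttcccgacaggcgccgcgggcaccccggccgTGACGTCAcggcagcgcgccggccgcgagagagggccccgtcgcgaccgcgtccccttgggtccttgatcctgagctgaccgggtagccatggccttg
NDUFB2 (chr7:140696458-140696757, plus strand): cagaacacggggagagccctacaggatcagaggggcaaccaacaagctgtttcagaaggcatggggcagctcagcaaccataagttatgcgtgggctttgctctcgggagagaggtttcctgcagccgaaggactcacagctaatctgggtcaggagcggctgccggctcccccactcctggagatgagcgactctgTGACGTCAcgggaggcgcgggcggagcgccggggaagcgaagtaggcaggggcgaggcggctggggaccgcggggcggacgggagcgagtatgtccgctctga
The matches in NDUFA10 and NDUFB2 begin 48 and 53 bases before the start, and these genes changed by -0.37 ± 0.07 and 0.63 ± 0.11 SE in melanosome against control, so the same letters were present at members called in opposite directions. A match describes the sequence only.

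Complex I also contains 7 subunits encoded by mitochondrial DNA, and these did not rise with the nuclear members. With melanosomes, 5 of 7 fell, with a median log2 fold change of -0.46. Calls of these 7 genes were not examined under the alternative settings in any comparison. Leaving out scaling factors moved all genes by a median of 0.17 in melanosome against control. MT-ND2 went from 1421 ± 82.0 CPM in control to 804 ± 45.6 CPM in melanosome libraries (SD, n = 3; -0.82 ± 0.07 SE, edgeR adjusted p = 3.55e-06) and MT-ND1 from 553 ± 30.9 to 377 ± 37.3 CPM (-0.55 ± 0.11 SE). MT-ND3 (0.03 ± 0.08 SE) and MT-ND6 (-0.46 ± 0.23 SE) were not called. Summed over genes, the 37 nuclear subunits held 3442 ± 25.8 TPM in control, 5129 ± 126 TPM in melanosome and 4960 ± 447 TPM in glabridin libraries. The 7 mitochondrial subunits held 24016 ± 989 TPM, 21060.0 ± 801 TPM and 14055 ± 1233 TPM in the same order. Nuclear subunits therefore made up 12.1% to 13.1% of complex I subunit TPM in control, 18.9% to 20.2% in melanosome and 23.9% to 27.9% in glabridin libraries, ranges that did not overlap. The libraries were made from poly(A) RNA, and most mitochondrial transcripts carry short tails. Their absolute share is therefore not a measure of their abundance in the cell, and their capture may differ among the 7 subunits.

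**Figure D3:**
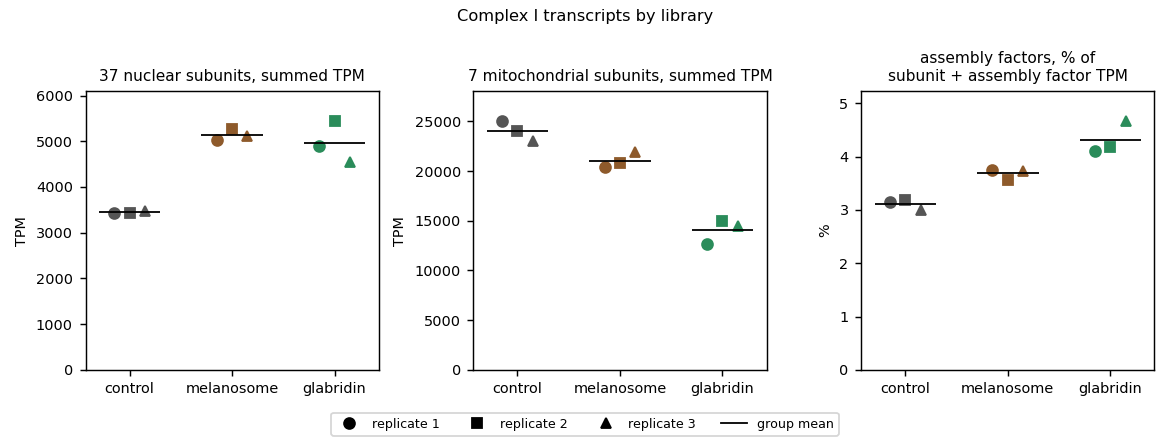
Summed TPM of the 37 nuclear-encoded subunits (left), summed TPM of the 7 mitochondrially encoded subunits (middle) and the share of the 8 NDUFAF assembly factors in the TPM of subunits plus assembly factors (right, %), each axis from 0, for every library with a line at the group mean. The nuclear sum is lowest in control, the mitochondrial sum is lowest in the glabridin group, and the assembly factor share runs from 2.998% to 3.18% in control and from 4.11% to 4.66% in the glabridin group.

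Set beside related lists in the same comparison, 24 of 40 nuclear-encoded subunits of complexes II to V rose and 4 fell (median log2 fold change 0.28), and of 78 mitochondrial ribosomal protein genes 34 rose and 9 fell (0.19). The subunit median of complex I, 0.47, was the higher value, without a test of the difference. Transcripts of NDUF members are short, with a median longest transcript of 1388 bases against 3664 over all genes tested. Across all genes the log2 fold change was related to length (Spearman rho -0.17) and to GC content (rho 0.30), and across the 47 members the same values were -0.14 and 0.33, as descriptions over genes that share the same libraries. The part of length and GC content in the rise was not tested.

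The comparison of glabridin with melanosome libraries addresses the effect of glabridin on melanosome-laden cells. Few complex I genes were called, and CPM did not overlap between the groups for 13 of 47 members, against 50.2% of all genes tested. Of 37 subunits 6 rose and 1 fell, and of 8 assembly factors 2 rose and 1 fell, whereas 43.9% of all genes tested were called (23.7% higher and 20.2% lower). The median log2 fold change was 0.15 over subunits and 0.22 over assembly factors, beside 0.01 over all genes. Leaving out 1 library moved the subunit median from 0.05 (without glabridin replicate 2) to 0.23 (without glabridin replicate 3), and the assembly factor median from 0.10 to 0.31 for the same libraries. The split of subunit calls turned with the scaling, being 3 higher and 2 lower with RLE factors, 1 and 4 without scaling factors and 2 and 7 with limma on log2(TPM + 1). Under those last 2 settings the subunit median was -0.03 and -0.04, and the assembly factor median 0.04 and 0.03. Leaving out scaling factors moved log2 fold changes of all genes by a median of -0.18 here and 0.17 in melanosome against control, and the share of calls that were higher went from 54.0% to 29.05% here and from 47.2% to 66.0% there. With limma on log2(TPM + 1) these shares were 27.5% and 69.9%. In the same comparison 4 keratinocyte markers rose and 4 fell, and their sum of 11864 to 14914 CPM in glabridin libraries lay below that of every melanosome library. Of the melanocyte markers 2 rose and 5 fell. The part of these cell types in the complex I values was not tested.

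The glabridin replicates differed among themselves in these genes. Summed over the 37 subunits, glabridin replicates 1, 2 and 3 held 4893, 5437 and 4551 TPM, against 5017, 5265 and 5104 TPM in the melanosome libraries, so the groups overlapped. The melanocyte markers summed to 2273, 3242 and 2042 TPM in the same glabridin libraries, and to 3470, 3399 and 3423 TPM in the melanosome libraries. A relation between the sums was not tested. Without glabridin replicate 3, 18 subunits rose, and without glabridin replicate 1, 1 rose. The number of subunits called higher under glabridin thus moved with single libraries.

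The calls of NDUFAF2 and NDUFS8 were kept under all 13 alternatives. NDUFAF2 held 13.4, 13.2 and 13.3 CPM in melanosome and 21.3, 20.3 and 24.4 CPM in glabridin libraries (1.65-fold, 0.73 ± 0.09 SE, edgeR adjusted p = 1.21e-04). Every glabridin library was above every melanosome library. NDUFS8 (chromosome 11, 68030617 to 68036644) held 138, 158 and 149 CPM against 207, 238 and 177 CPM (0.48 ± 0.10 SE, edgeR adjusted p = 0.00239), again without overlap. NDUFB9, in the distal arm, held 99.1, 107 and 104 CPM against 139, 144 and 117 CPM (0.36 ± 0.08 SE, edgeR adjusted p = 0.00416). Its call was lost without glabridin replicate 1 (0.25, adjusted p = 0.0874) and without scaling factors (0.18, adjusted p = 0.0524).

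Other calls under glabridin were near the threshold. NDUFS4, an N module subunit, held 30.3, 32.0 and 30.8 CPM in melanosome and 37.5, 38.4 and 37.02 CPM in glabridin libraries (0.28 ± 0.08 SE, edgeR adjusted p = 0.0124). It was not called without glabridin replicate 1 (adjusted p = 0.128), without scaling factors (0.276) or with limma on log2(TPM + 1) (0.246). NDUFA6, with 45.2, 51.1 and 46.5 CPM against 53.2, 59.2 and 56.0 CPM (0.24 ± 0.07 SE, edgeR adjusted p = 0.0211), NDUFV3 (0.23 ± 0.08 SE, 0.0462) and NDUFB5 (0.19 ± 0.07 SE, 0.0447) were likewise higher, and NDUFAF3 was 1.37-fold higher (0.45 ± 0.15 SE, 0.0302). Of 13 alternatives, NDUFA6 lost its call under 7, among them the omission of melanosome replicate 1 or 3 or glabridin replicate 1 (adjusted p from 0.0749 to 0.109), RLE factors (0.0614) and no scaling factors (0.489). NDUFAF3 also lost its call under 7, among them the omission of melanosome replicate 1 or 2 or glabridin replicate 1 (0.0895 to 0.107), RLE factors (0.0551) and no scaling factors (0.141). The call of NDUFV3 was lost under 10, including the omission of melanosome replicate 2 or 3 or glabridin replicate 1 (0.128 to 0.460) and the replicate number as a block (0.0698). That of NDUFB5 was lost under 12, including the omission of any 1 of the 3 melanosome replicates or of glabridin replicate 1 or 2 (0.0523 to 0.252) and the block (0.0858).

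NDUFAF7 fell in the same comparison, from 16.2, 16.3 and 17.5 CPM to 13.0, 13.9 and 13.8 CPM, with no overlap (-0.30 ± 0.08 SE, edgeR adjusted p = 0.0133), and its call was lost without melanosome replicate 3 (adjusted p = 0.0578). NDUFC2, at 13.6, 17.0 and 14.9 CPM with glabridin, was not called (-0.41 ± 0.16 SE, edgeR adjusted p = 0.0602), nor were NDUFV1 (0.11 ± 0.11 SE), NDUFS1 (0.02 ± 0.07 SE) and NDUFAB1 (0.20 ± 0.10 SE). NDUFC2 passed as lower under 6 of 13 alternatives, namely RLE factors (adjusted p = 0.0425), no scaling factors (0.0157), DESeq2 (0.0249), limma (0.0252), without melanosome replicate 3 (0.0214) and without glabridin replicate 2 (0.0204). Without glabridin replicate 3, NDUFV1 (0.24, adjusted p = 0.0215) and NDUFAB1 (0.29, adjusted p = 0.0112) passed.

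Mitochondrially encoded subunits fell further under glabridin, with 6 of 7 called lower and a median log2 fold change of -0.48. MT-ND1 went from 377 ± 37.3 CPM to 159 ± 24.0 CPM (-1.25 ± 0.11 SE, edgeR adjusted p = 1.09e-05) and MT-ND5 from 695 ± 57.9 to 424 ± 63.8 CPM (-0.71 ± 0.11 SE). MT-ND4 (-0.14 ± 0.14 SE) was not called. Of the 12 assembly factors without an NDUF name, ECSIT (0.48 ± 0.08 SE) and TMEM242 (0.38 ± 0.11 SE) rose and TIMMDC1 (-0.18 ± 0.06 SE) and ACAD9 (-0.24 ± 0.09 SE) fell. These 4 genes serve the membrane arm or its assembly complex, and they were called in both directions. Of the 40 subunits of complexes II to V, 12 rose. Their median log2 fold change of 0.16 was close to the 0.15 of complex I subunits.

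The 2 NDUF-named genes outside complex I rose in this comparison. NDUFA4L2, a paralog of NDUFA4 known as a target of hypoxia-inducible factor that restrains complex I activity (chromosome 12, 57234903 to 57240715), held 0.596, 0.497 and 0.396 CPM in control, 1.43, 1.48 and 1.49 CPM in melanosome and 5.61, 4.52 and 5.67 CPM in glabridin libraries. Its 3 groups did not overlap, and its counts ran from 16 to 26 in control and from 180 to 259 in the glabridin group. The fold was 2.93 for melanosome against control (1.55 ± 0.20 SE, edgeR adjusted p = 7.30e-05) and 3.59 for glabridin against melanosome (1.85 ± 0.16 SE, edgeR adjusted p = 8.96e-06). NDUFA4 held 70.1, 66.4 and 71.1 CPM, 80.3, 86.0 and 85.8 CPM and 123, 139 and 112 CPM in the same order. Its changes were 0.28 ± 0.08 SE (edgeR adjusted p = 0.0111) and 0.57 ± 0.08 SE (edgeR adjusted p = 2.64e-04), again with groups that did not overlap. All 4 calls were kept under every alternative run.

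Glabridin-treated, melanosome-laden cells were also compared with untreated control cells, a comparison that shares its libraries with the first 2 and is given for the net difference. Of 37 subunits 29 rose and 1 fell, and of 8 assembly factors 7 rose and 1 fell, where 70.3% of all genes tested were called (37.6% higher and 32.7% lower). The median log2 fold change was 0.58 over subunits and 0.88 over assembly factors, beside 0.03 over all genes. Of the 12 assembly factors without an NDUF name, 5 rose and 4 fell (median 0.07). Of 40 nuclear-encoded subunits of complexes II to V, 28 rose and 2 fell (0.43). Of 78 mitochondrial ribosomal protein genes, 47 rose and 11 fell (0.34). CPM did not overlap for 40 of 47 members, against 73.2% of all genes tested. By module, 7 of 8 N module, 7 of 9 proximal and 10 of 12 distal subunits rose. As in the first comparison, 18 of 18 melanocyte markers rose in these libraries, and 3 keratinocyte markers rose and 7 fell.

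NDUFAF3 showed the largest net rise of the 8 assembly factors, 3.23-fold (1.69 ± 0.15 SE, edgeR adjusted p = 3.46e-06). NDUFAF8 followed with libraries at 5.89, 5.02 and 4.45 CPM in control and 9.85, 13.3 and 9.51 CPM in the glabridin group (2.12-fold, 1.09 ± 0.17 SE, edgeR adjusted p = 1.55e-04), and NDUFAF2 was 2.02-fold higher. No glabridin library of these 3 genes overlapped control. NDUFAF4 (0.95 ± 0.14 SE), NDUFAF1 (0.82 ± 0.14 SE) and NDUFAF5 (0.77 ± 0.14 SE) also rose. NDUFAF6 passed narrowly (0.32 ± 0.13 SE, edgeR adjusted p = 0.0422) and lost its call without any single control replicate or without glabridin replicate 1 or 2 (adjusted p from 0.0662 to 0.129), with the replicate number as a block (0.0710), without the filter on low counts (0.0537), with limma (0.05004) and with only the 2 groups compared (0.0752). NDUFAF7 fell (-0.34 ± 0.08 SE, edgeR adjusted p = 0.00357).

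Among subunits, NDUFB6 (2.25-fold, 1.17 ± 0.14 SE), NDUFB8 (2.05-fold, 1.03 ± 0.18 SE), NDUFS8 (2.04-fold, 1.03 ± 0.10 SE) and NDUFS3 (2.04-fold, 1.03 ± 0.13 SE) had the largest net rises, with edgeR adjusted p between 4.75e-06 and 4.76e-04. The glabridin libraries held 31.4, 41.1 and 35.8 CPM of NDUFB6 and 90.9, 113 and 73.5 CPM of NDUFS3, all above control, and NDUFS8 stood at 104, 98.1 and 103 CPM in control. NDUFB8, a distal membrane arm subunit, held 2.52, 1.74 and 2.30 CPM in control, 3.60, 4.34 and 3.49 CPM in melanosome and 3.86, 5.38 and 4.21 CPM in glabridin libraries. Its control libraries stood below all others, and 33.8% of its exonic bases are shared with a readthrough gene on the same strand. NDUFA10 was the single subunit that fell (124, 127 and 120.2 CPM against 101, 106 and 89.4 CPM, -0.33 ± 0.07 SE, edgeR adjusted p = 0.00156). NDUFV1 rose to 349, 428 and 290.1 CPM (0.60 ± 0.11 SE), NDUFS1 to 119, 139.7 and 116 CPM (0.33 ± 0.07 SE) and NDUFAB1 to 63.5, 77.0 and 57.5 CPM (0.66 ± 0.10 SE). The rises of NDUFB4 and NDUFA1 were not called without glabridin replicate 1 (adjusted p = 0.0602 and 0.0505), nor that of NDUFB4 without control replicate 3 (0.0597).

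Among the subunits not called were NDUFV3, NDUFA8, NDUFB1, NDUFB5, NDUFA7 and NDUFA5, with log2 fold changes from -0.12 to 0.46. Without glabridin replicate 3, NDUFA8 passed as higher (0.19, edgeR adjusted p = 0.0284) and NDUFA5 as lower (-0.34, 0.0328). Without glabridin replicate 2, NDUFB5 passed as lower (-0.17, edgeR adjusted p = 0.0124). NDUFA5, a Q module subunit, held 38.4, 39.4 and 40.7 CPM in control, 35.3, 29.9 and 22.9 CPM in melanosome and 31.0, 31.1 and 46.6 CPM in glabridin libraries. Glabridin replicate 3 was the highest of the 9 libraries and melanosome replicate 3 the lowest. All 7 mitochondrially encoded subunits fell, from -0.28 ± 0.08 SE for MT-ND3 to -1.80 ± 0.11 SE for MT-ND1 (edgeR adjusted p = 1.87e-07). Most nuclear and all mitochondrial transcripts of the same enzyme thus lay on opposite sides of control in the glabridin group, beside a share of counts from mitochondrial genes of 1.53% to 1.87%, against 3.36% to 3.61% in control.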

How the data were processed

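The 9 libraries were poly(A)-selected, kept strand by dUTP and read from both ends, per the labels' protocols. Each gene has a whole-number count, a TPM and an FPKM from the authors, per the file headers; FPKM was not used. The deposited TPM table repeats the TPM columns. The submitters' processing notes name hg38 as the build. For the aligner, the counting program, its strand setting and the annotation, the name is not given in the sources used here. Groups were taken from sample titles and treatment labels. Ensembl identifiers were matched to symbols for 20148 of 20263 genes, and coordinates are from GENCODE release 29.

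The deposited counts went into edgeR 4.0.16 under R 4.3.3 (TMM factors, filterByExpr by group, quasi-likelihood test), with all 9 libraries in 1 fit and p-values adjusted over all 13912 genes. Standard errors were derived from the F statistic. The procedure was tried on simulated counts with the same spread in every group, unlike the replicates described below. It recovered 38.8% of 1.5-fold changes in melanosome against control, 47.8% in glabridin against melanosome and 40.3% in glabridin against control. Of 2-fold changes it recovered 94.0%, 95.5% and 97.0% in the same order, so smaller changes may often go uncalled. Alternatives were RLE or no scaling factors, DESeq2 1.42.0, no filter, limma 3.58.1 on log2(TPM + 1), only the 2 groups compared, a replicate block and leaving out each library; the share without NDUFAF3 and NDUFAF2 was added after seeing the data. The members and lists were chosen with earlier results of these data known. For each comparison, values per library are given for the 4 largest rises and falls among called subunits, the 2 largest among assembly factors, and NDUFS1, NDUFV1, NDUFAB1, NDUFA4 and NDUFA4L2, and other members are examples chosen after their values were seen. Values of 1 member that is counted in the lists are not reported here. Chi-square per gene between replicates ran from 3.19 to 5.42 in control, 4.44 to 14.4 in melanosome and 31.4 to 104 in glabridin libraries, so none was a copy of another. Between 69.9% and 72.2% of counts from 1 to 49 were even, against 48.7% to 51.1% of counts over 500; how read pairs were counted is not given.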

Additional observations from a re-analysis of the deposited data

How the results depend on the processing

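In melanosome against control, 32 to 35 of the 35 calls among NDUF genes were kept under each alternative, and the subunit median log2 fold change was 0.53 with RLE factors, 0.63 without scaling factors, 0.53 with DESeq2, 0.63 with limma on log2(TPM + 1) and 0.55 with only the 2 groups compared. Calls were also gained, with 38 NDUF genes called with RLE factors, 39 without scaling factors and 38 with DESeq2. The assembly factor median was 0.83 without scaling factors, and 1 subunit was called lower without scaling factors and 1 with limma. In glabridin against control, 37 to 40 of 40 calls were kept, and leaving out 1 library gave 1 to 2 subunits called lower. In glabridin against melanosome, 5 to 11 of 12 calls were kept. There, RLE factors gave 3 subunits higher and 2 lower with 1 assembly factor higher, no scaling factors gave 1 and 4 with assembly factors at 1 higher and 2 lower, limma gave 2 and 7 with 1 and 2, and DESeq2 gave 2 subunits lower. Only the 2 groups compared gave 7 NDUF genes called, with 3 subunits higher, 0 lower (edgeR; 2 by DESeq2 on all libraries) and 1 assembly factor higher. Leaving out 1 library gave 5 to 23 NDUF genes called, 1 to 18 subunits higher, 0 to 4 lower, 1 to 2 assembly factors higher and 0 to 1 lower, with medians from 0.05 to 0.23 over subunits and 0.10 to 0.31 over assembly factors. The cause of these shifts was not tested.

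With the replicate number as a block, 35, 10 and 39 NDUF genes were called in the 3 comparisons, against 35, 12 and 40 without it. Deviations of same-numbered libraries from their group means correlated between -0.44 and 0.13, and not every library correlated best with its own number, so the numbers were not taken as pairs. For NDUFA7, with 8 to 24 counts per library, the SE of the log2 fold change ran from 0.34 to 0.36 over the 3 comparisons. Its lack of a call therefore does not show an unchanged level. Whether a change of the size seen in most subunits would be detected at this depth was not tested.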
